A study of Sus scrofa with 207 samples.

Results

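The slow fibre contractile genes are the myosin heavy chain MYH7, the light chains MYL2 and MYL3, the troponins TNNT1, TNNC1 and TNNI1, and the oxygen-binding protein MB. Members were the probe sets that carry 1 of these symbols and no other. Of the 7 genes, 6 had such a probe set, exactly 1 each, among 23935 non-control probe sets, and MB was not analysed here. Of the 23935, only 10069 carried a single symbol, and these stand for 6765 genes. The samples were muscle of 207 crossbred pigs of 1 commercial herd, Pix(DLxDE), slaughtered at an end weight of 110 kg on average, with 1 Affymetrix Porcine Genome Array per animal. All animals form a single group, and the labels add a drip loss for each animal and a fat area for all but 8 of them. The labels used here name no sampled muscle, sex, sire, slaughter day or array batch.

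Slow, or type I, fibres contract slowly, resist fatigue and draw on mitochondrial respiration, whereas fast fibres rely more on glycolysis. The slow sarcomere has its own set of parts: MYH7 is the motor, MYL2 and MYL3 are the regulatory and essential light chains bound to its neck, and TNNT1, TNNI1 and TNNC1 form the troponin that switches the thin filament on when calcium rises. MYH7, MYL2, MYL3 and TNNC1 are also used by heart muscle, and fibre type makeup is one of the traits studied in relation to meat quality in pigs.

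The muscle label was checked against markers. Creatine kinase CKM lay between 14.00 and 14.22 on the log2 scale, at the bright end of the arrays, and titin TTN averaged 13.58. Of 7 measured genes of the cardiac and embryonic list, the natriuretic peptide NPPA (mean 5.31) and the cardiac ryanodine receptor RYR2 (4.78) lay under the median of all probe set means, 6.10. The other 5 lay above it: NPPB averaged 6.48, the cardiac troponins TNNT2 and TNNI3 averaged 6.72 and 7.25, the light chain MYL4 averaged 9.58 and cardiac actin ACTC1, which developing skeletal muscle also uses, averaged 9.68. Each array was also compared with all others by its median correlation. For 24 arrays it was low by more than 3 scaled median absolute deviations, down to 0.944, against 0.978 for the median array. These 24 low-correlation arrays recur below, since the slow fibre genes were dimmer in them. In a whole-muscle sample, fewer slow fibres and less slow fibre RNA per fibre cannot be told apart.

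All 6 genes were bright in every animal and differed little between animals. Values are log2 expression values, given as lowest, median and highest of 207 arrays, so 1 unit is a doubling. MYH7, the slow myosin motor, lay at 13.40, 13.87 and 14.03, with an SD of 0.10. MYL2, the regulatory light chain, lay at 13.28, 13.85 and 14.02 (SD 0.12). Both myosin genes had their brightest arrays only just above the median and a tail of dimmer ones. MYL3, the essential light chain, lay at 11.87, 12.82 and 13.25 (SD 0.24). It had the widest range of the 6, 2.60-fold from the lowest to the highest animal, against 1.55-fold for MYH7 and 1.67-fold for MYL2.

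Among the troponin genes, TNNT1, the subunit that anchors troponin to tropomyosin, lay at 13.10, 13.72 and 13.94 (SD 0.16). TNNC1, the calcium sensor, lay at 12.80, 13.64 and 13.90 (SD 0.19). TNNI1, the inhibitory subunit, lay at 12.63, 13.37 and 13.62 (SD 0.21). Their ranges were 1.79-fold, 2.14-fold and 1.99-fold. No member had a value at the floor of the scale.

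**Figure D1:**
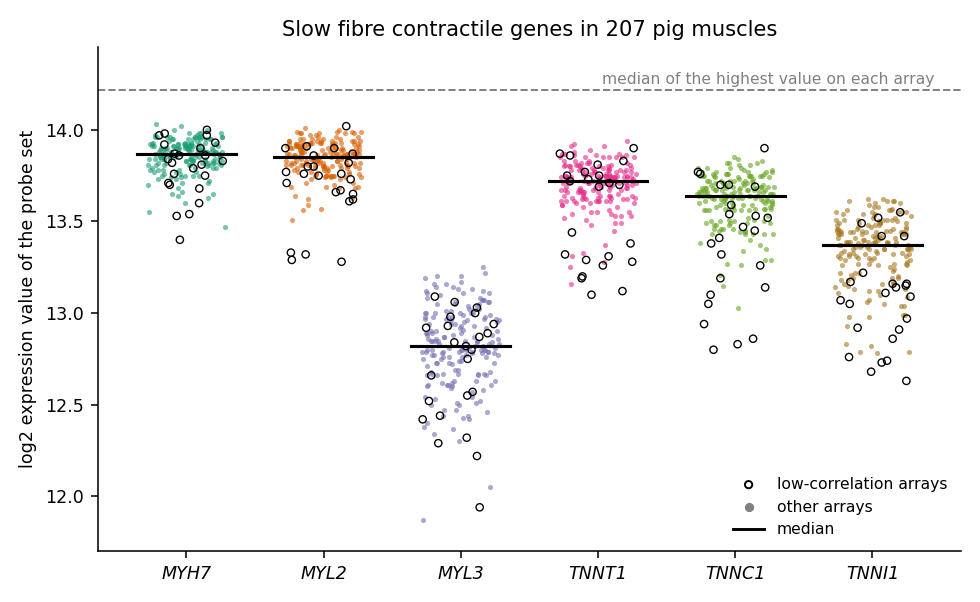
Log2 expression value of each of the 6 slow fibre genes in each of the 207 animals (open circles for the low-correlation arrays, filled points for the others, solid lines at the medians, dashed line at 14.22, the median of the highest value of an array). Each gene has a long tail of dim animals and a short upper end, and the SD runs from 0.10 for MYH7 to 0.24 for MYL3.

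The ranges were lopsided in the same way for all 6 genes. The lowest animal lay 0.47 (MYH7) to 0.95 (MYL3) log2 units under the median, whereas the highest lay 0.16 (MYH7) to 0.43 (MYL3) above it. Skewness was negative throughout, from -0.87 for MYL3 to -1.83 for MYL2. The tails were shared between genes. When the 21 dimmest animals of each gene were marked, 10 animals were marked for all 6 genes and 18 for at least 4 of them. Of the 21 brightest animals of each gene, 4 were shared by all 6 genes and 14 by at least 4.

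The spreads were also set beside the brightness of the probe sets. MYH7 had only 18 probe sets with a higher mean on the whole array and MYL2 had 22, whereas TNNT1 had 35, TNNC1 48 and TNNI1 78, and for MYL3 the number came to 0.744% of all probe sets. Such a rank says where a probe set lies on the scale of the array, not how abundant its RNA is. The brightest value of an array had a median of 14.22, and MYH7 lay within 0.5 log2 units of it on 87.4% of the 207 arrays, MYL2 on 86%, TNNT1 on 46.4% and TNNC1 on 24.6%. MYL3 and TNNI1 lay that close on 0 arrays.

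Over all probe sets the spread between animals shrank towards the top of the scale. The median SD was 0.268 for the 3143 probe sets with a mean of 8 to 10, 0.205 from 12 to 13, 0.154 from 13 to 13.5 (65 probe sets), 0.0888 from 13.5 to 14 (52) and 0.0488 above 14 (9). From MYH7 to MYL3, the order of the members by SD was the reverse of their order by brightness. Set against the median SD of probe sets of like brightness, the SD was 1.13 times as large for MYH7, 1.15 for MYL3, 1.34 for TNNI1, 1.35 for MYL2, 1.77 for TNNT1 and 2.09 for TNNC1. Only 1 of the 52 probe sets in its bin varied more than TNNC1, and 5 of 52 varied more than TNNT1, whereas 20 of 52 varied more than MYH7. The values used here carry no saturation mark, so whether and how far the bright end of MYH7 and MYL2 is compressed was not tested.

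**Figure D2:**
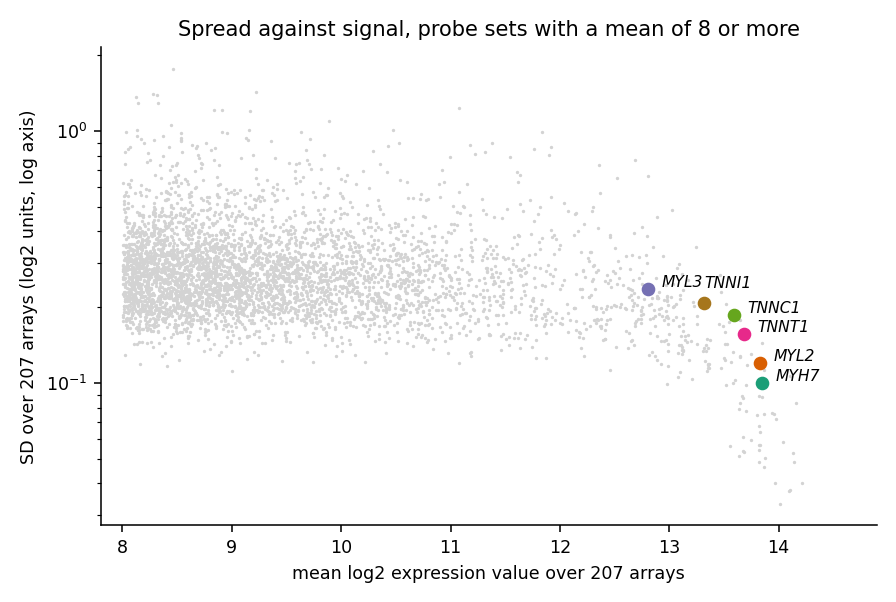
SD over the 207 arrays (log axis) against the mean log2 expression value, for probe sets with a mean of 8 or more in grey and the 6 slow fibre genes in colour. The grey cloud falls at the bright end, to a median SD of 0.0888 for means of 13.5 to 14, and TNNC1 and TNNT1 lie on its upper edge.

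The dim tail coincided in part with the low-correlation arrays. Of the 10 animals at the low end for all 6 genes, 4 had such an array. Median TNNI1 was 13.10 in the 24 low-correlation arrays and 13.38 in the others, and median TNNC1 was 13.43 in the 24 and 13.65 in the others. The gap was smaller for MYL2 (13.76 in the 24, 13.86 in the others), MYH7 (13.83 and 13.88), TNNT1 (13.70 and 13.72) and MYL3 (12.81 and 12.83). In limma over all probe sets, all 6 genes rose with the median correlation of an array (6 of 6, where 19.4% of all probe sets rose). Pearson's r was 0.48 for TNNI1 (adjusted p = 3.6e-11), 0.44 for TNNC1 (adjusted p = 1.4e-09), 0.43 for MYL2 (adjusted p = 1.3e-08), 0.40 for TNNT1 (adjusted p = 1.5e-07), 0.28 for MYH7 (adjusted p = 8.0e-04) and 0.21 for MYL3 (adjusted p = 0.0081).

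A second array property was related to 3 of the members. The signal of the 3' minus the 5' probe sets of the actin and EF1A controls, a measure of RNA integrity and labelling, was a property with which MYL3 (r = 0.22, adjusted p = 0.0058), TNNT1 (r = 0.18, adjusted p = 0.033) and MYH7 (r = 0.17, adjusted p = 0.048) rose in limma. The same slope did not pass for TNNC1 (r = 0.071), TNNI1 (r = -0.11) or MYL2 (r = -0.13). The 3 genes that passed stand beside 22.1% of all probe sets that rose with it. The part of either property in the results below was examined only where values are given.

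The 6 genes rose and fell together across animals. Each of the 15 pairs was correlated over the 207 arrays with Pearson's r between 0.50 and 0.87 (median 0.74) and Spearman's rho between 0.44 and 0.85 (median 0.70). Every pair had a two-sided permutation p of 1e-05 for both measures, the smallest that 100000 permutations can give, and r lay between 0.51 and 0.87 without the 2 arrays farthest from the median of the first gene. When every probe set was regressed on 1 member by limma and adjusted over all 23934 others, the other 5 members rose with it in each of the 6 fits. The share of all probe sets that rose was 8.14% with MYH7, 16.6% with MYL2, 8.87% with MYL3, 11.2% with TNNT1, 15.7% with TNNC1 and 15.9% with TNNI1.

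Within the troponin complex the correlations were high: r was 0.87 between TNNC1 and TNNI1, 0.86 between TNNT1 and TNNC1 and 0.80 between TNNT1 and TNNI1. MYH7 followed TNNT1 (r = 0.85) more closely than its own light chains, with r = 0.73 for MYL3 and 0.67 for MYL2. The 2 light chains were the least alike of all pairs, at r = 0.50. MYL2 had its highest correlation with TNNC1 (r = 0.84) and MYL3 with TNNT1 (r = 0.74). These orderings describe the 15 values and no difference between correlations was tested.

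Against the whole array the members were each other's nearest neighbours for most genes. Of the 23934 other probe sets, the one most correlated with MYH7 was TNNT1, followed by TNNC1 and MYL3, with MYL2 at rank 5 and TNNI1 at rank 7. For TNNT1, TNNC1 came first, MYH7 at rank 2, TNNI1 at rank 3, MYL2 at rank 4 and MYL3 at rank 6. TNNC1 and TNNI1 each held rank 1 for the other. MYL3 stood farther off in 1 direction: it was only at rank 200 for MYL2, while MYL2 was at rank 47 for MYL3.

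The correlations among the members were of like size under each way of setting array differences aside. The median r of the 15 pairs was 0.72 with blocks of title numbers as a covariate, 0.73 without the low-correlation arrays, 0.71 with the median array correlation and the 3' minus 5' control signal regressed out, and 0.77 with the first 5 principal components of all probe sets regressed out. Title numbers form a higher series of 33 animals and a lower series, and the median r was 0.76 in the higher and 0.73 in the lower one. The pair of MYL2 and MYL3 stayed lowest in value under quantile normalization (r = 0.39) and without the low-correlation arrays (r = 0.48). The second principal component of all probe sets also parted the members, with r of -0.53 for MYL2, -0.42 for TNNI1 and -0.41 for TNNC1, but -0.12 for TNNT1, -0.030 for MYL3 and -0.017 for MYH7. The number of other probe sets that followed a member was smaller without the low-correlation arrays. The share that rose was then 3.21% with MYH7, 9.38% with MYL2, 3.23% with MYL3, 4.21% with TNNT1, 6.62% with TNNC1 and 6.89% with TNNI1, and the other 5 members still rose in each of the 6 fits.

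Other genes whose levels followed the slow set were ranked by r with the mean of the 6 standardised members over the 207 arrays. Among 4878 genes with a mean above the median of all probe sets, the median r was 0.051, the central 90% ran from -0.24 to 0.40, and 82 genes were over 0.5. The slow tropomyosin TPM3 stood first (r = 0.83). It was the closest non-member of MYH7, TNNT1, TNNC1 and TNNI1 as well, with r up to 0.85 for TNNC1. Next came the heart-type lactate dehydrogenase subunit LDHB (r = 0.74), the LIM domain protein FHL1 (0.72), TRNP1 (0.71), a nuclear protein known from the developing mouse brain, and the slow and cardiac calcium pump of the sarcoplasmic reticulum ATP2A2 (0.69).

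The atrial and embryonic light chain MYL4 (0.69) and the ATP-gated channel P2RX4 (0.67) were also among the 12 highest. The other 5 of the 12 are mitochondrial: the ATP synthase subunit ATP5G1 (0.68), the complex I subunit NDUFA11 (0.66), the complex III subunit UQCR10 (0.64), the muscle complex IV subunit COX7A1 (0.64) and the cristae protein CHCHD10 (0.63). For MYL3 the closest non-member was MYL4 (r = 0.78), a related light chain, and whether the probe sets share signal was not tested. For MYL2 it was LDHB (r = 0.79), followed by TPM3 and the acyl-CoA thioesterase ACOT13 (0.70).

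At the other end r was weaker. The lowest values belonged to the peroxisomal oxidase ACOX3 (r = -0.42), the endosomal sorting protein PDCD6IP (-0.42), PRRC2C (-0.42), ZNF34 (-0.41), the acute phase protein ORM1 (-0.41), the tubulin ligase TTLL3 (-0.39), LOC100738955 (-0.39) and the ribosome-bound chaperone DNAJC2 (-0.38). Leaving out the low-correlation arrays gave an r of 0.83 for TPM3, 0.75 for LDHB, 0.72 for ATP2A2 and for MYL4, 0.71 for P2RX4, 0.68 for FHL1 and 0.62 for TRNP1. It was 0.59 for ATP5G1, 0.55 for NDUFA11, 0.53 for UQCR10 and for COX7A1 and 0.51 for CHCHD10, and between -0.36 and -0.19 for the 8 lowest.

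Many listed partners of the slow programme rose with the members. Of 19 measured slow fibre partners out of 27, between 11 and 13 rose with each member and 0 fell. The share of all genes that rose, with 1 probe set per gene, was 13.4% for MYH7, 26.2% for MYL2, 14.5% for MYL3, 19.1% for TNNT1, 26.2% for TNNC1 and 25% for TNNI1. The median r of the 19 with the mean of the members was 0.34, beside 0.051 for all genes above. Among the brightest of the list, the thin filament ruler NEB had an r of -0.058 and the small heat shock protein CRYAB one of 0.10, whereas FHL1 and ATP2A2 are among the highest given above. Between 9 and 12 rose without the low-correlation arrays and 1 fell, with MYL2, where 5.28% (MYH7) to 15.4% (MYL2) of all genes rose.

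Of 19 measured regulators of the slow programme out of 34, between 0 and 3 rose with a member and between 2 and 7 fell, with a median r of -0.075. The share of all genes that fell was 5.29% for MYH7, 14.6% for MYL2, 4.94% for MYL3, 6.89% for TNNT1, 12.6% for TNNC1 and 14.6% for TNNI1. The 4 brightest regulators were the calcineurin subunit PPP3CB (r = -0.075), the AMP-activated kinase subunit PRKAA2 (-0.085), the calcineurin inhibitor RCAN1 (-0.063) and the calcium-dependent kinase CAMK2D (-0.21). The ends of the list, named after their values were seen, were the transcription factor MEF2A at -0.34 and the kinase subunit CAMK2B at 0.26. When the low-correlation arrays were left out, 0 to 2 regulators rose with a member, and 2 fell with MYL2, 1 with TNNC1, 4 with TNNI1 and 0 with the others. Of all genes, 8.80% then fell with MYL2, 2.42% with TNNC1 and 4.45% with TNNI1. The share of all genes that rose was then 5.28% (MYH7) to 15.4% (MYL2).

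The fast fibre list had 16 measured genes out of 25. It holds enzymes such as LDHA, PFKM and GPD1 beside contractile genes, and MYH1 and MYH4 were not among the measured ones. Of the 16, 4 rose with MYH7, 6 with MYL2, 2 with MYL3, 5 with TNNT1, 6 with TNNC1 and 4 with TNNI1, and 1 fell with each of MYL2 and TNNI1. These counts stand beside the shares of all genes that rose, 13.4% for MYH7 to 26.2% for MYL2 and TNNC1. Most of the rises were lost without the low-correlation arrays: 4 genes then rose with MYH7, 1 with TNNI1 and 0 with the others, and 2 fell with MYL2. Of all genes, 5.28% then rose with MYH7 and 12.0% with TNNI1, and 8.80% fell with MYL2. Over all arrays the median r of the 16 with the mean of the members was 0.10. The 4 brightest were the fast myosin MYH2 (r = -0.13), the tropomyosin TPM1 (-0.084), the light chain MYL1 (0.039) and the lactate dehydrogenase subunit LDHA (0.13). The mean of the 6 slow genes had an SD of 0.15 between animals and the mean of the 16 fast genes one of 0.040. The correlation of these means was 0.29, and 0.055 without the low-correlation arrays. The fast genes are also bright, so the smaller spread of bright probe sets described above has to be kept in mind for them too.

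**Figure D3:**
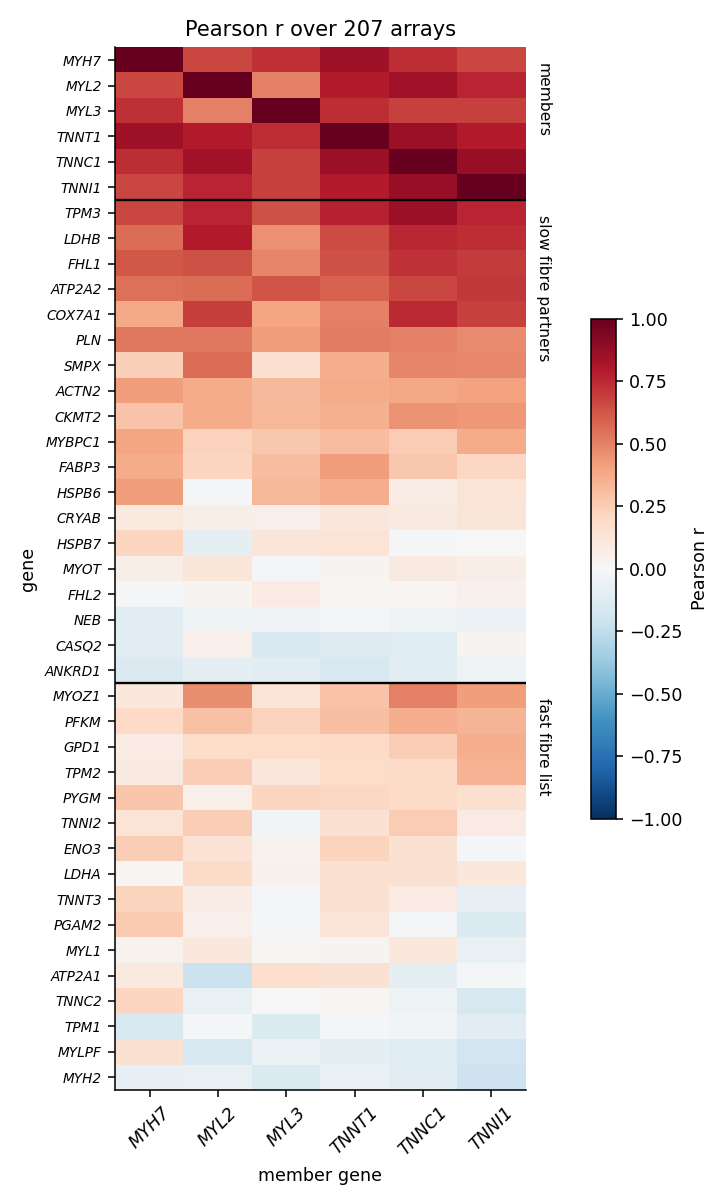
Pearson's r over 207 arrays (colour scale from -1 to 1) of the 6 slow fibre genes (columns) with each other, with the 19 slow fibre partners and with the 16 fast fibre genes (rows, in blocks from top to bottom). In the block of members TNNC1 and TNNI1 are the highest pair at 0.87 and MYL2 and MYL3 the lowest at 0.50. Most fast genes are pale, but MYOZ1 reached 0.51 with TNNC1, 0.47 with MYL2 and 0.42 with TNNI1.

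Markers of other cell types were set beside the members, and their part in the co-variation was not tested. Counts are of listed genes that rose or fell with a member, and stand beside the all-gene shares above. The mean level of the smooth muscle and pericyte list ran from 9.68 to 10.66 over the arrays, its r with the members lay between 0.27 (MYH7) and 0.46 (TNNI1), and 1 (MYH7) to 5 (TNNI1) of its 6 genes rose and 0 fell. This list holds the intermediate filament gene DES, which skeletal fibres also express. In the fibroblast and matrix list, with a mean level of 7.15 to 9.02, 8 of 12 genes rose with MYL2 (r of the mean 0.28), 3 with TNNC1, 3 with TNNI1 and 0 with the others, and 0 fell. In the adipocyte list, at 6.29 to 8.33, 6 of 10 genes rose with MYL2 (r of the mean 0.20), 3 with TNNC1, 4 with TNNI1 and 0 with the others, while 1 fell with each of MYH7, MYL2, TNNC1 and TNNI1. For MYL2 the share of all genes that rose was 26.2%. Without the low-correlation arrays 5 smooth muscle, 5 fibroblast and 5 adipocyte genes rose with MYL2, beside 15.4% of all genes. No adipocyte gene then rose with another member. Of the fibroblast genes 1 then rose with each of MYH7 (beside 5.28% of all genes), MYL3 (5.80%) and TNNT1 (6.96%), and 0 with TNNC1 or TNNI1. Of the smooth muscle genes 5 then rose with TNNI1 (beside 12.0% of all genes), 3 with TNNC1 (12.3%), 2 with MYH7 (5.28%) and 1 with each of MYL3 and TNNT1.

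For the endothelial list (6.74 to 7.78) r ran from 0.052 (MYL2) to 0.34 (MYL3). Of its 11 genes 2 to 4 rose with a member, with 2 rising and 2 falling for MYL2 and 1 falling for TNNC1. For the nerve and Schwann cell list (6.03 to 6.87) r ran from 0.17 (MYH7) to 0.34 (TNNC1), with 0 to 2 of 6 genes rising and 1 falling with each of MYL2, TNNC1 and TNNI1. For the satellite cell list (7.06 to 7.82) r ran from -0.23 (MYL2) to -0.15 (MYL3), with 1 to 3 of 7 genes falling, beside 4.94 to 14.6% of all genes, and 1 rising with TNNI1. Without the low-correlation arrays 3 of the 7 fell with MYL2, beside 8.80% of all genes. With the other members 0 then fell, and 0 rose with any member. Blood cell markers (5.68 to 7.22) had r between -0.050 and 0.0090, with 0 or 1 of 7 genes rising and 1 falling with TNNT1. Macrophage and leukocyte markers (5.80 to 7.30) had r between -0.15 and 0.072, with 0 to 2 of 14 rising and 0 to 2 falling. The list of cardiac and embryonic isoforms had r between -0.056 and 0.057, with 2 or 3 of 7 genes rising and 0 or 2 falling. The skeletal muscle identity list had r between 0.18 (MYL2) and 0.31 (MYH7), with 1 to 3 of 11 rising and 0 to 3 falling. Without the low-correlation arrays 6 of the 11 rose with MYH7, beside 5.28% of all genes, and 1 or 2 with each other member.

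Drip loss is the share of its weight that longissimus muscle gives off as fluid while suspended in the cold. The comparison asks whether animals with more slow fibre RNA hold water differently. Drip loss averaged 5.37 ± 2.22% (SD, n = 207). None of the 6 genes followed it: 0 of 6 passed in limma after Benjamini-Hochberg adjustment over all probe sets, where 4.61% did, and 0 of 6 had an unadjusted p under 0.05. MYH7 values show the pattern. In the 69 animals with the lowest drip loss (1.45 to 4.05%) MYH7 had a lowest, median and highest value of 13.54, 13.88 and 14.03, in the middle 69 animals (4.05 to 6.59%) 13.40, 13.88 and 14.00, and in the 69 with the highest drip loss (6.63 to 10.82%) 13.53, 13.84 and 14.02. The ranges overlapped almost wholly.

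TNNC1 had 12.80, 13.67 and 13.90 in the animals with the lowest drip loss, 13.03, 13.64 and 13.85 in the middle ones and 12.94, 13.63 and 13.83 in those with the highest. These ranges overlapped too, and the dimmest animal was one with low drip loss. Mean drip loss was 4.20 ± 1.55% in the pigs of the 24 low-correlation arrays, whereas it was 5.53 ± 2.25% (SD) in all other pigs.

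The slopes and their intervals are on the scale of the array values, and how far they carry over to RNA levels of the brightest genes was not tested. Per SD of drip loss (2.22%), MYH7 had a slope of -0.0036 ± 0.0074 log2 units (SE, adjusted p = 0.85, limma), with a 95% interval from -1.26 to 0.763% of its level. The light chains had 0.0092 ± 0.0087 for MYL2 (adjusted p = 0.61, -0.545 to 1.84%) and 0.019 ± 0.016 for MYL3 (adjusted p = 0.56, -0.904 to 3.64%). All 6 intervals held 0, and that of MYL3 was the widest.

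Of the troponin genes, TNNT1 had 0.0066 ± 0.011 (adjusted p = 0.80), TNNC1 0.013 ± 0.013 (adjusted p = 0.62) and TNNI1 0.016 ± 0.015 (adjusted p = 0.61). Their intervals reached up to 2.00%, 2.75% and 3.11% of the level per SD. The median slope of the 6 was 0.011, beside 0.0080 over 1 probe set of every gene. Without the low-correlation arrays MYL2, TNNT1, TNNC1 and TNNI1 had slopes of -0.0058, -0.0084, -0.0084 and -0.0078. The same 4 slopes were also below 0 with blocks of title numbers as a covariate and with 5 principal components as covariates.

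The fat area on the longissimus muscle was 15.0 ± 3.15 cm2 on average (SD, 8 of 207 animals without a value). Again 0 of 6 genes passed in limma, where 0.121% of all probe sets did, and 0 of 6 had an unadjusted p under 0.05. TNNI1 came nearest, with 0.026 ± 0.015 log2 units per SD (SE, p = 0.078, adjusted p = 0.76) and a 95% interval from -0.207 to 3.91%. TNNI1 had a lowest, median and highest value of 12.63, 13.35 and 13.62 in the 66 animals with the smallest fat area (8.1 to 13.1 cm2), 12.76, 13.38 and 13.62 in the middle 66 (13.2 to 15.9 cm2) and 12.79, 13.37 and 13.58 in the 67 with the largest (15.9 to 26.7 cm2). The medians differed by less than the SD of 0.21 between animals.

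For the other genes the slopes on fat area were 0.0054 ± 0.0076 for MYH7, 0.014 ± 0.0089 for MYL2, -0.0021 ± 0.017 for MYL3, 0.0097 ± 0.011 for TNNT1 and 0.015 ± 0.013 for TNNC1 (SE, adjusted p from 0.79 to 0.99). The median slope was 0.012, beside -0.0015 over 1 probe set of every gene. With both traits in a fit of the animals that had both, the slope on drip loss did not differ from that on fat area for any member (0 of 6, adjusted p from 0.74 to 0.99, with 0.347% of all probe sets passing and 0 of 6 at an unadjusted p under 0.05). The slope on drip loss also did not differ detectably between the higher and the lower series of title numbers (0 of 6 and 0 of all probe sets in limma, with 0 of 6 members and 1042 probe sets at an unadjusted p under 0.05).

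**Figure D4:**
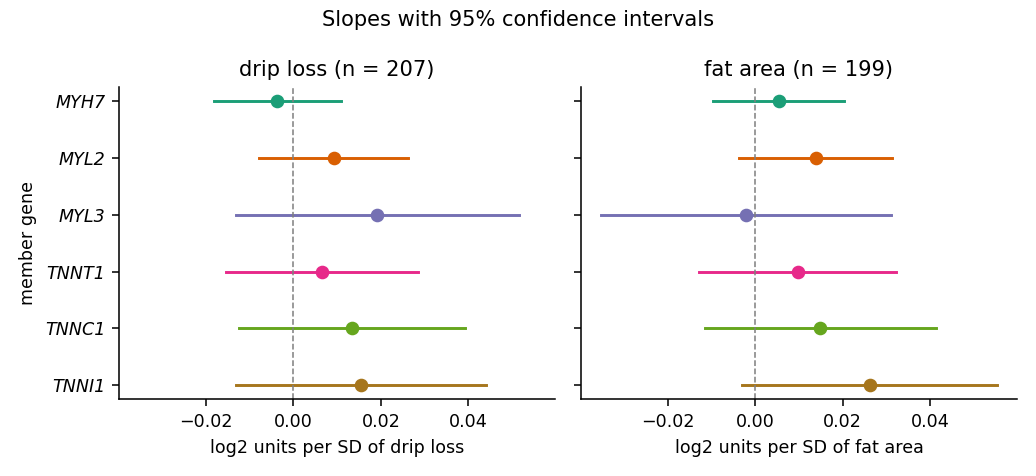
Slope of each slow fibre gene in log2 units per SD of drip loss (207 animals) and of fat area (8 animals without a value), with 95% intervals. All 12 intervals include 0, and the widest belong to MYL3 and TNNI1.

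A difference between the mean of the 6 slow genes and the mean of the 16 fast genes was formed per animal as a description of the slow fibre share. Centred on its mean, it ran from -0.49 to 0.26 log2 units, 1.67-fold in all, with an SD of 0.14. Its r was 0.96 to the slow mean and 0.015 to the fast mean. The value of 0.96 follows largely from the spreads, an SD of 0.15 for the slow mean and 0.040 for the fast mean. The value of 0.015 also depends on the correlation of the means, which was 0.29, and 0.055 without the low-correlation arrays. Both means rest on bright probe sets, which spread less, so a steady fast side cannot be read from these values. Whether the scale is compressed there was not tested. Its median was 0.041, 0.033 and 0.021 in the animals with the lowest, middle and highest drip loss, and 0.030, 0.048 and 0.027 from the smallest to the largest fat area. Its r with drip loss was 0.026 and with fat area 0.064.

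Within the listed genes a few followed drip loss in limma, none of them a member and none for fat area, where 0.148% of all genes passed. COX7A1, 1 of 19 slow partners, rose by 0.066 ± 0.021 log2 units per SD (SE, adjusted p = 0.048), and GPD1, a glycerol phosphate dehydrogenase and 1 of 16 fast genes, by 0.042 ± 0.013 (adjusted p = 0.048). TNNI3, the heart form of troponin I, rose by 0.094 ± 0.030 (adjusted p = 0.044). Of the 19 regulators 0 passed. Among the cell markers, 1 endothelial gene (ENG) fell and 1 leukocyte gene (CCL5) rose, and 0 passed in the adipocyte, blood, fibroblast, smooth muscle, nerve, satellite and muscle identity lists. The share of all genes was 3.96% higher and 2.11% lower. Without the low-correlation arrays the slopes were 0.026 for COX7A1 (adjusted p = 0.51), 0.023 for GPD1 (adjusted p = 0.39) and 0.050 for TNNI3 (adjusted p = 0.31). They were -0.055 for ENG (adjusted p = 0.14) and 0.049 for CCL5 (adjusted p = 0.37). Of the 15 alternatives tried, 11 lost the call of COX7A1, 12 that of GPD1, 11 that of TNNI3, 10 that of ENG and 10 that of CCL5.

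The level of the slow set did differ between blocks of title numbers, the only ordering that the labels carry. Whether a block of 100 numbers marks a batch, a time or a litter is not stated. All 6 genes passed the moderated F test of limma over 10 blocks, beside 38% of all probe sets. The adjusted p was 4.9e-04 for TNNT1, 5.6e-04 for MYL2, 0.0014 for TNNC1, 0.0035 for MYH7, 0.0058 for TNNI1 and 0.049 for MYL3. Blocks held 17.7% of the variance of MYL2, 17.2% of TNNT1, 15.3% of TNNC1, 15.3% of MYH7, 13.0% of TNNI1 and 9.46% of MYL3, where the median probe set had 7.84%.

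Most of these calls depended on 1 block. The 10 animals of the block that starts at number 700 had the lowest mean of all blocks for every member: 13.70 for MYH7, 13.69 for MYL2, 12.55 for MYL3, 13.43 for TNNT1, 13.35 for TNNC1 and 13.12 for TNNI1. Of these 10 animals, 4 had a low-correlation array, and 4 were among the 10 animals at the low end for all 6 genes. With the low-correlation arrays left out, the block from 700 still had the lowest mean for MYH7, MYL3, TNNT1 and TNNC1. For MYL2 (13.76) and TNNI1 (13.24) the block from 600 then lay lower, at 13.75 and 13.22. Without the block from 700 only MYL2 passed (adjusted p = 0.016), beside 30.04% of all probe sets. The adjusted p was then 0.059 for TNNI1, 0.12 for TNNC1, 0.37 for TNNT1, 0.59 for MYL3 and 0.61 for MYH7. Without the low-correlation arrays MYL2, TNNT1, TNNC1 and TNNI1 still passed, beside 27.96% of all probe sets. MYH7 (adjusted p = 0.23) and MYL3 (adjusted p = 0.53) did not pass there. Quantile normalization ended the call of MYL3 alone (adjusted p = 0.24), where 38.19% of all probe sets passed.

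**Figure D5:**
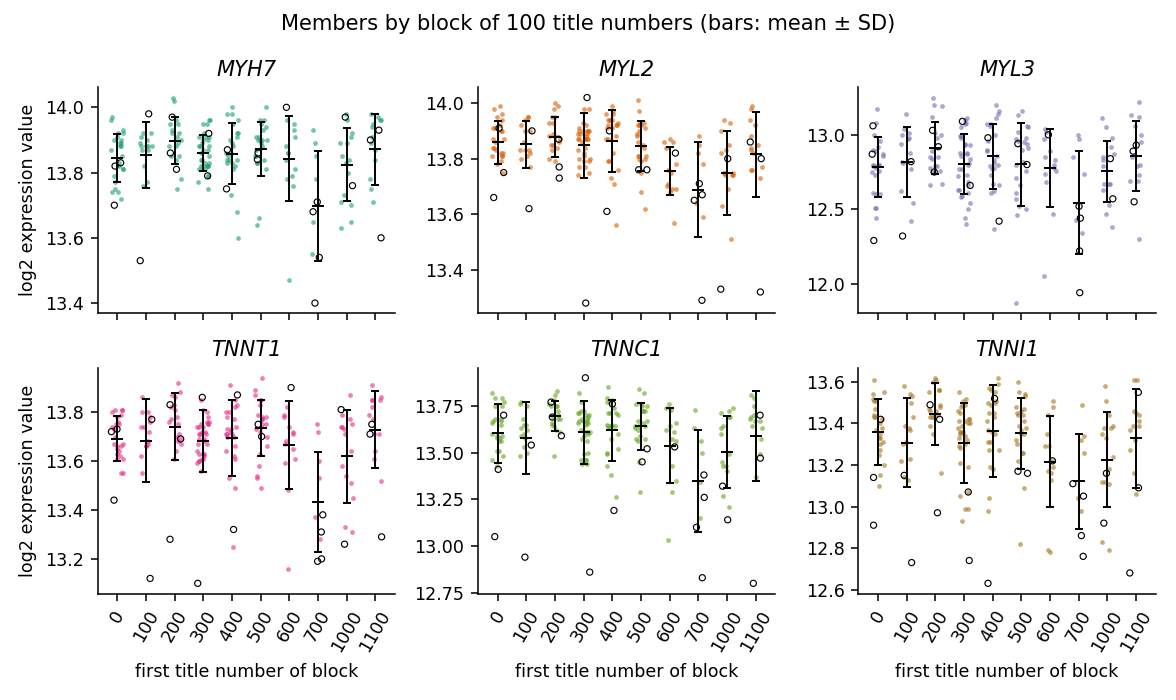
Log2 expression value of each slow fibre gene by block of 100 title numbers (x axis: first number of the block; 1 point per animal, open circles for low-correlation arrays, bars for the mean ± SD of the block). The block that starts at number 700 has the lowest mean for all 6 genes.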

How the data were processed

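The authors deposited a log2 value for every probe set and array. GCOS 1.1.1 and PLIER were used, per the submitters' processing notes, and any scaling between arrays is not given in the sources used here. The values, between 4 and 15.32 with a floor at 4, were used as deposited. Of 24123 probe sets 188 controls were left out. Symbols came from the array annotation, and 1 probe set stood for each gene, the one with the highest mean.

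Every probe set was regressed by limma 3.58.1 (lmFit, eBayes; R 4.3.3) on drip loss, fat area, both, each member, array properties or blocks of 100 title numbers, with Benjamini-Hochberg adjustment over all tested probe sets at 0.05, two-sided. Slopes are per SD. The code was tested on simulated data. Correlations used 100000 permutations. The members and gene lists, and the rule for named genes (all members, the 12 highest and 8 lowest r with their mean, 3 partners per member, and list genes past a trait test or among the 4 brightest of a list; the marker check of the tissue names others), were chosen with earlier results of these data known. The number of arrays limits precision.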

Additional observations from a re-analysis of the deposited data

How the results depend on the processing

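No slow fibre gene passed for either trait under any of the 15 alternatives run for each, so every sign below belongs to a slope that did not pass, and in none of these cases was the cause tested. Signs turned in 18 of 90 slopes on drip loss and 5 of 90 on fat area. On drip loss with blocks of title numbers as a covariate, slopes were -0.0041 for MYL2, -0.0059 for TNNT1, -0.0039 for TNNC1 and -0.0021 for TNNI1. In the higher number series they were -0.031 for MYL3, -0.0028 for TNNT1 and -0.0045 for TNNI1. With 5 principal components they were -0.012 for MYL2, -0.00032 for MYL3, -0.011 for TNNT1, -0.019 for TNNC1 and -0.020 for TNNI1. Without the low-correlation arrays they were -0.0058 for MYL2, -0.0084 for TNNT1, -0.0084 for TNNC1 and -0.0078 for TNNI1. TNNT1 had -0.0018 with the fast mean and -0.0017 with the median array correlation as a covariate. On fat area MYH7 had -0.00034 in the lower series, MYL3 had 0.086 in the higher series, and without the low-correlation arrays MYH7 had -0.0011, TNNT1 -0.0044 and TNNC1 -0.00021.

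Of all probe sets 4.61% passed for drip loss, but 0.623% with blocks, 0 in the higher series, 0.823% in the lower series, 0.0543% with 5 principal components, 0.831% with the low-correlation arrays left out, 2.43% with the control signal difference, 1.45% with the fast mean, 1.51% with the median array correlation and 10.6% when only probe sets with a mean above the median were tested, which are fewer. For fat area 0.121% passed, but 0 in the higher series and 0.380% with 5 principal components. For the difference of the slopes 83 probe sets passed, but 41 with the low-correlation arrays left out. Of the members, 6 passed for blocks, but 1 without the block from number 700, 4 without the low-correlation arrays and 5 after quantile normalization. The share of all probe sets that passed for blocks was 38%, and 30.04%, 27.96% and 38.19% under these settings in turn. The mean slow minus fast difference was -0.21, but 0.31 when each gene was averaged over its probe sets, which changes the fast genes only since each slow gene has 1. The median array correlation as a covariate, the regressed-out pair correlations and leaving out that block were chosen after seeing the data. No paired analysis was possible because there is 1 group. Brightness may limit what the bright members can show, which was not tested.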
